A study of Mus musculus with 59 samples.

Results

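The genes described here are those named for the machinery of oxidative phosphorylation (OXPHOS) in the mouse. They were taken by symbol: nuclear genes whose symbols start with Nduf, Uqcr, Atp5, Cox4, Cox5, Cox6, Cox7 or Cox8, together with Sdha, Sdhb, Sdhc and Sdhd, and mitochondrial genes whose symbols start with mt-Nd, mt-Co, mt-Cytb or mt-Atp. Symbols with the pseudogene ending -ps were left out. This gave 110 genes of 52060 symbols in all gene tables, of which 97 are nuclear and 13 mitochondrial. The tables of cells without a time point listed 105 of them, with 92 nuclear. The annotation lists 4 nuclear members with ordinary symbols, Ndufa11b, Ndufb4c, Ndufs6b and Cox6c2, as processed pseudogenes. Of these, Cox6c2 alone passed the minimum of reads for testing in any table, and it was called in none. The symbols, and no measured value, decided which genes belong to the group.

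RNA-seq had been run on haematopoietic stem and progenitor cells sorted from the bone marrow of C57BL/6 mice, to find which genes change when Daxx, a chaperone of histone H3.3, Pu.1, a transcription factor encoded by Spi1, or both are deleted by an inducible Cre. KLS cells carry c-Kit and Sca-1 without lineage markers and contain the stem cells, granulocyte-monocyte progenitors (GMPs) are committed myeloid cells downstream of them, and MPP3 and MPP4 are multipotent progenitors with a myeloid and a lymphoid bias. In every group, wild type included, the animals carried Cre on 1 allele. WT animals were Daxx +/+ (or Pu.1 +/+ in the Pu.1 line), Daxx-KO animals were Daxx F/F, DKO animals were Daxx F/F Pu.1 F/F and Pu.1-KO animals were Pu.1 F/F. Where the labels name a mouse line for the libraries used here it is Mx1Cre, an interferon-inducible Cre that was switched on with pI:pC and also acts outside these progenitors. Times are weeks post induction (w.p.i.). Samples whose labels carry no time or line are called untimed here, and the methods of the study place such a pair of libraries per genotype in transplanted animals. The methods of the study give a range of ages at induction for its mice as a whole, and the labels give none per library. For both KLS cells and GMPs the comparisons rest on 2 Daxx-KO and 2 WT untimed libraries, on 3 Daxx-KO, 3 WT and 2 DKO libraries at 3 w.p.i., and, for the Pu.1 line at 3 w.p.i., on 2 libraries labelled Pu.1-KO and 2 labelled WT. The other libraries compared are 4 MPP3 and 4 MPP4 libraries at 3 w.p.i. whose genotype could not be matched to a column. WT libraries at 24 w.p.i., 2 of KLS cells and 2 of GMPs, were used for levels alone. Within a group the libraries were compared over genes, and the 36 pairs differed from each other by more than sampling noise, so none was counted as a repeat.

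OXPHOS is carried out in the inner mitochondrial membrane. Complex I (NADH dehydrogenase) and complex II (succinate dehydrogenase) pass electrons to ubiquinone, complex III (cytochrome bc1) hands them to cytochrome c and complex IV (cytochrome c oxidase) to oxygen, while complex V (ATP synthase) makes ATP from the proton gradient built by complexes I, III and IV. Complex II is encoded wholly in the nucleus, whereas the others combine nuclear subunits with a few made from mitochondrial DNA. Quiescent haematopoietic stem cells are known for a low reliance on respiration, which grows as cells commit and proliferate.

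The 44 libraries used held 3045852 to 29335964 gene reads. Daxx stood at 3.24 to 7.43 RPM (reads-per-million, a gene's reads scaled to the same library total) in Daxx-KO and DKO libraries and at 17.9 to 57.9 in the WT libraries of the untimed, 3 w.p.i. and 24 w.p.i. sets. Spi1 stood at 220 and 219 RPM in DKO-labelled KLS libraries against 127, 127 and 175 in WT, and at 249 and 210 in Pu.1-KO-labelled GMPs against 255 and 282. The deleted part of Spi1 is not given in the sources used here, so its level checked no label. The libraries are therefore called DKO-labelled and Pu.1-KO-labelled. In untimed Daxx-KO KLS cells the defining markers were low: 9 of 10, Kit and Flt3 among them, fell and 1, Ly6a, rose, and their sum was 1384 and 1318 RPM against 5859 and 5935 in WT. These were RNA measurements on sorted populations, so fewer cells of a type and less RNA per cell cannot be told apart. The study counts mice as its replicates, whereas the labels number animals for some of the libraries alone, and the p values measure the spread between these libraries.

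All 13 mitochondrial members were listed at 0 in all 44 libraries. They are the complex I subunits mt-Nd1, mt-Nd2, mt-Nd3, mt-Nd4, mt-Nd4l, mt-Nd5 and mt-Nd6, the complex III subunit mt-Cytb, the complex IV subunits mt-Co1, mt-Co2 and mt-Co3, and the complex V subunits mt-Atp6 and mt-Atp8. The same held for every one of the 37 rows with an mt- symbol, which include the mitochondrial ribosomal and transfer RNAs, while the nuclear genes Actb, Gapdh and Hprt had reads in every library. A value of 0 in all libraries of such abundant RNAs is not a level, so no fold change, test or ratio of mitochondrial to nuclear OXPHOS RNA was computed. Among nuclear members, Ndufa13, an accessory subunit of complex I that is found in most cell types, was also listed at 0 in every library. It lies at chr8:69894180-69902558 (GRCm38, minus strand), where the annotation has Yjefn3 on the same strand and Tssk6 on the other.

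The nuclear members are short genes. In the GENCODE annotation of GRCm38, 96 of the 97 had a position, the median span from first to last exon was 7.25 kb, and 82 spanned under 20 kb. Spans ran from the 0.231 kb of the pseudogene Cox6c2, or 0.953 kb among protein-coding members, to the 156 kb of Ndufaf2, a complex I assembly factor at chr13:108002715-108158623. Another gene overlapped 41 of them, and how the authors' counting treated overlaps, strand and near-identical copies is not given in the sources used here. The values of members such as Atp5g1, Atp5g2 and Atp5g3, which encode the same mature ring subunit of complex V, are uncertain to that extent.

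Promoter sequences are shown for 4 members that fell in untimed Daxx-KO GMPs, because many nuclear OXPHOS genes are known to be driven by NRF1, by the ETS factor GABP and by YY1, and these windows hold such motifs. RefSeq windows (GRCm38.p6) of 300 bases, 250 before and 50 after the annotated start, matched 72 of the 84 nuclear members tested in GMPs. Motifs in those 72 are set beside the 9463 windows of all genes tested in the same GMPs and beside all 27025 promoters in the RefSeq set, many of them of genes without reads here. An NRF1 motif (its known 10-letter palindrome with the sixth base left free) was in 18 of the 72 (25%), against 10.8% of tested genes and 4.78% of all promoters. The full palindrome was in 9.72% against 2.13% and 0.977%. A YY1 motif (AAGATGGC) was in 13.9% against 4.89% and 2.88%. An ETS motif (CCGGAAG) was in 23.6% against 19.0% and 9.12%, which for tested genes was close to the members. An Sp1 motif (GGGCGG) was in 45.8%, below the 63.6% of tested genes and above the 35.9% of all promoters. The searches used both strands, a window can hold several motifs, and the windows of nearby genes can overlap. At least 1 of the NRF1, ETS and YY1 motifs was in 14 of 30 windows of members that fell (46.7%) and in 25 of 41 windows of members that were not called (61.0%), and this difference was not tested. A match is a run of letters and not a shown binding site.

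Each window printed is from a called member, and its stretch of 60 bases with a motif lay before the start and touched no annotated exon. The windows are examples and not a full list of such members. Capitals mark the motif, an NRF1 motif in Ndufaf4 and Cox6a1 and the reverse complement of the ETS motif in Ndufb6 and Sdhd. The positions are chr4:24897945-24898004 (plus strand) for Ndufaf4, chr4:40279612-40279671 (minus) for Ndufb6, chr5:115349041-115349100 (minus) for Cox6a1 and chr9:50603850-50603909 (minus) for Sdhd.
Ndufaf4: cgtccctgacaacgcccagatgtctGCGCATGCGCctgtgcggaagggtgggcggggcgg
Cox6a1: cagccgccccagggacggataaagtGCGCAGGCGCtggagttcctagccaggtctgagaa
Ndufb6: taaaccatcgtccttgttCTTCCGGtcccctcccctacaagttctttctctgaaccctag
Sdhd: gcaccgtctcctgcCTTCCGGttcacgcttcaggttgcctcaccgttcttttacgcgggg

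Nuclear OXPHOS genes took 0.307% to 0.756% of all gene reads in a library, with a median of 0.497%. The share was 0.474% and 0.498% in untimed WT GMPs and 0.330% and 0.307% in untimed Daxx-KO GMPs, so the genotypes did not overlap and the difference of the means, Daxx-KO minus WT, was -0.167 percentage points. In untimed KLS cells it was 0.324% and 0.312% in WT and 0.349% and 0.378% in Daxx-KO, again without overlap but with Daxx-KO higher and a mean difference of 0.0455 percentage points. At 3 w.p.i. the KLS shares were 0.379%, 0.352% and 0.393% in WT, 0.411%, 0.505% and 0.434% in Daxx-KO, and 0.407% and 0.487% in DKO-labelled cells. Every WT library lay below every library without Daxx in that table. The GMP shares at 3 w.p.i. were 0.647%, 0.551% and 0.613% in WT, 0.722%, 0.470% and 0.744% in Daxx-KO, and 0.451% and 0.756% in DKO-labelled cells. The WT libraries lay inside the range of both other groups. In the Pu.1 line the share was 0.566% and 0.472% in WT KLS cells against 0.414% and 0.382% in Pu.1-KO-labelled ones, and 0.685% and 0.688% in WT GMPs against 0.584% and 0.665%. A sum over the members has no test here, and these shares are a description.

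**Figure D1:**
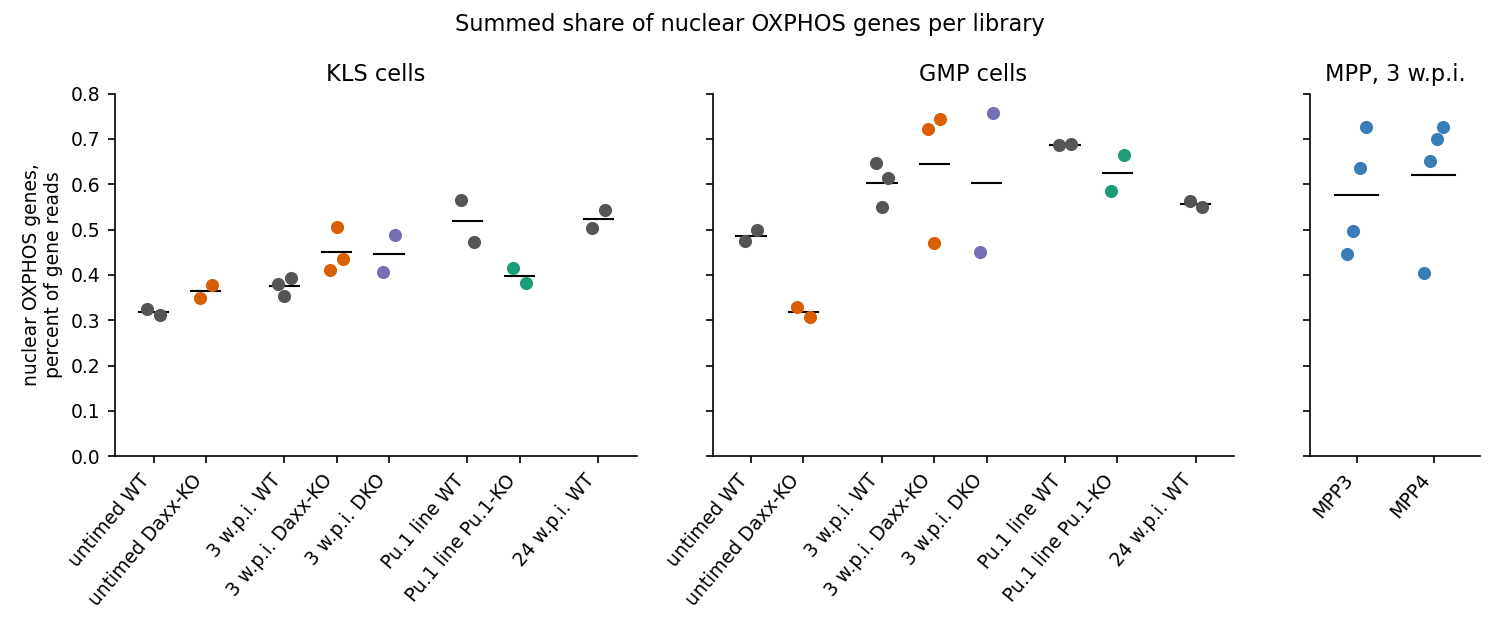
Reads of the nuclear OXPHOS genes as a percent of all gene reads in each library, 1 point per library, grouped by set and genotype, with a bar at the group mean. Untimed Daxx-KO GMPs lie at 0.330% and 0.307%, below the untimed WT GMPs at 0.474% and 0.498%.

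Levels of different genes were compared only as RPM per kb of exon. In WT cells at 3 w.p.i. outside the Pu.1 line the most abundant member on that scale was Atp5a1, the alpha subunit of the complex V head, at 124 ± 6.79 in KLS cells and 222 ± 6.43 in GMPs (mean ± SD, n = 3). Cox8a, a small subunit of complex IV, stood at 82.3 ± 9.65 and 157 ± 32.2, and Atp5b, the catalytic beta subunit of complex V, at 62.8 ± 4.29 and 132 ± 17.0. In WT cells of the Pu.1 line Cox6c2, the short processed pseudogene, stood higher, at 606 ± 86.5 in KLS cells and 787 ± 7.73 in GMPs against 173 ± 37.0 and 235 ± 15.6 for Atp5a1 (n = 2), beside 4.86 ± 4.17 and 15.7 ± 6.58 for Cox6c2 in the other WT cells at 3 w.p.i. In WT cells at 24 w.p.i. Cox6c2 stood at 99.8 ± 17.4 in KLS cells and 102 ± 5.49 in GMPs (n = 2). Its level is uncertain, since such a copy can share reads with its parent gene. The isoforms known from muscle, testis or low oxygen were below their common counterparts.

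Cox4i2, the low-oxygen and lung form of a complex IV subunit, was at 0.611 ± 0.415 in WT KLS cells at 3 w.p.i. beside 31.8 ± 4.94 for Cox4i1, and at 1.41 ± 0.293 beside 58.7 ± 16.2 in GMPs. Cox6a2, Cox7a1 and Cox8b are the heart and skeletal muscle forms. Cox6a2 was listed at 0 in all 44 libraries, Cox7a1 was at 3.04 (range 1.98 to 4.89) in KLS cells beside 12.7 ± 2.30 for Cox7a2, and Cox8b was at 0.124 ± 0.215. Cox6b2, the testis form of another complex IV subunit, was at 3.20 ± 2.85 in KLS cells, with its highest library at 6.47, beside 38.6 ± 3.45 for Cox6b1. Ndufa4l2, known as a low-oxygen form, was listed at 0 in all 3 KLS libraries and reached 0.267 in 1 GMP library, whereas Ndufa4 was at 17.1 ± 0.465 and 24.4 ± 2.42. The order of common over tissue form was the same in both cell types for each of these pairs.

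Loss of Daxx in untimed GMPs came with lower RNA of nuclear OXPHOS genes. Of 84 members that passed the minimum (a mean normalised read count of 10 in the table), 36 fell and 1 rose, the remaining 47 were not called, and 77 of 84 estimates were below 0. The median log2 fold change of the 84 was -0.48 against -0.01 over all 12744 genes tested. Genes were called with limma at a Benjamini-Hochberg adjusted p under 0.05 over all genes of the table. The background was high, since 33.0% of all genes were called in either direction and 16.5% fell, against 42.9% of the members that fell. Members that fell came from every complex: 11 of 36 of complex I, 2 of 8 assembly factors of complex I, 4 of 4 of complex II, 3 of 8 of complex III, 7 of 12 of complex IV and 9 of 16 of complex V. Another 8 members of the table were under the minimum, and 2 of those were listed at 0 in all 4 libraries.

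Complex I genes that fell in untimed GMPs included accessory subunits, which surround the catalytic core, assembly factors and core subunits. Ndufb6 stood at 75.5 and 95.8 normalised reads in WT and 50.7 and 38.3 in Daxx-KO (log2 fold change -0.93 ± 0.30 (SE), adjusted p = 0.0394). Ndufc2 stood at 286 and 314 against 187 and 146 (-0.85 ± 0.17, adjusted p = 0.00475). Ndufb9 stood at 213 and 171 against 97.3 and 115 (-0.85 ± 0.20, adjusted p = 0.0115). In each of these 3 genes both Daxx-KO libraries lay below both WT libraries. Ndufa4, named as a complex I gene but known to be part of complex IV, is counted with complex I throughout, by its symbol. It fell from 485 and 566 to 259.5 and 281 (-0.95 ± 0.13, adjusted p = 0.00071). The assembly factor Ndufaf4 fell from 185 and 199 to 122 and 80.0 (-0.95 ± 0.23, adjusted p = 0.0126). Ndufaf2, which helps late assembly, fell from 554 and 474 to 290 and 288 (-0.83 ± 0.13, adjusted p = 0.00137). Ndufs7, a core subunit, fell from 274 and 263 to 162 and 195 (-0.59 ± 0.16, adjusted p = 0.0205). The core subunits Ndufs1, which carries iron-sulfur clusters, and Ndufv1, which binds NADH, were not called: Ndufs1 was at 423 and 389 in WT and 330.5 and 335 in Daxx-KO, and Ndufv1 at 290 and 391 against 270 and 217.

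Ndufv3, an accessory subunit beside the NADH-binding site, was the member that rose in untimed GMPs. It stood at 286 and 301 normalised reads in WT and 440 and 462 in Daxx-KO (0.62 ± 0.12, adjusted p = 0.00468). Its libraries did not overlap, in the direction opposite to the members that fell. Of the 84 estimates 7 were above 0, and Ndufv3 alone of these was called. It lies at chr17:31520115-31531331 with no overlapping gene in the annotation.

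All genes of complex II fell in untimed Daxx-KO GMPs. Sdhb, the iron-sulfur subunit, stood at 315 and 344 in WT against 170 and 206 (-0.81 ± 0.16, adjusted p = 0.00411). Sdha, the flavoprotein that oxidises succinate, stood at 1192 and 1216 against 900.2 and 877 (-0.44 ± 0.09, adjusted p = 0.00606). The membrane anchors Sdhc and Sdhd fell by 0.55 and 0.47 on the log2 scale. In complex III, Uqcr10, a small subunit, stood at 219 and 202 against 122 and 91.4 (-0.99 ± 0.20, adjusted p = 0.00531), and Uqcrfs1, the Rieske iron-sulfur protein, at 345 and 339.8 against 251 and 198 (-0.62 ± 0.16, adjusted p = 0.0153). The core protein Uqcrc1 was not called, at 830.0 and 803 against 748 and 649.

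The largest fall of any member in untimed GMPs was in complex IV. Cox5a, a matrix-side subunit that docks on Cox4, stood at 347 and 333 in WT against 172 and 115 in Daxx-KO (-1.27 ± 0.20, adjusted p = 0.00144). Cox6b1, which caps the dimer, stood at 343 and 436 against 187 and 224 (-0.92 ± 0.17, adjusted p = 0.00300). Cox4i1 stood at 656 and 734 against 547 and 502 (-0.40 ± 0.11, adjusted p = 0.0241). The changes within complex IV, counted by symbol and so without Ndufa4, thus ran from -1.27 to -0.40 among its 7 members that fell. The others were Cox5b, Cox6a1, Cox7b and Cox8a.

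Complex V held the most abundant members that fell in untimed GMPs. Atp5b stood at 2986 and 3186 in WT against 1736 and 1873 in Daxx-KO (-0.77 ± 0.09, adjusted p = 0.00023), and Atp5a1 at 2823 and 3051 against 1859 and 1704 (-0.72 ± 0.09, adjusted p = 0.00041). Atp5g3, a gene of the membrane ring, stood at 705 and 742 against 314 and 355 (-1.11 ± 0.12, adjusted p = 0.00016). Atp5k, a membrane subunit of the dimer interface, stood at 274 and 217 against 122 and 119.9 (-1.01 ± 0.18, adjusted p = 0.00291). In all 4 genes the genotypes did not overlap. The others that fell were Atp5c1, Atp5d, Atp5f1, Atp5g1 and Atp5j.

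Other measures moved with the genotype in the same GMP libraries, and their part in the result was not tested. RNAs that stay in the nucleus (Malat1, Neat1, Kcnq1ot1, Snhg14 and Meg3) summed to 2624 and 2673 RPM in WT and to 6373 and 6940 in Daxx-KO. Mature neutrophil markers summed to 736 and 1025 in WT and to 5104 and 7155 in Daxx-KO, with 4 of 9 tested that rose and 3 that fell. Over all genes that span under 20 kb, as most members do, the median log2 fold change was -0.07, 14.3% fell and 10.4% rose. The GMP-defining markers summed to 11066 and 11135 in WT and 10907 and 10371 in Daxx-KO. Leaving out 1 library kept the median of the members between -0.49 and -0.43, whereas the count of called members ranged from 8 without WT 2 to 39 without Daxx-KO 1, with 14 without WT 1.

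**Figure D2:**
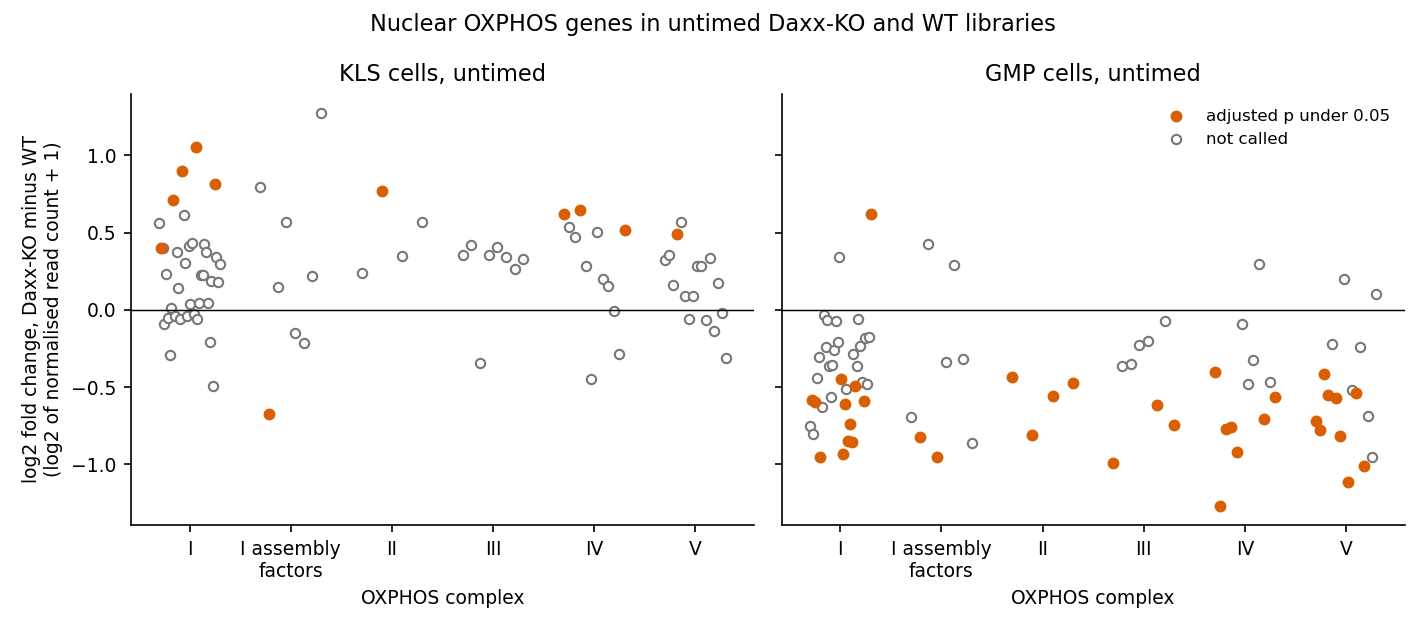
Log2 fold change (Daxx-KO minus WT) of each tested nuclear OXPHOS gene in untimed KLS cells and untimed GMPs, by complex, 1 point per gene, with called genes filled. In GMPs 36 of 84 genes fell and 1 rose, and in KLS cells 10 of 84 rose and 1 fell.

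Untimed KLS cells showed the opposite direction and fewer calls. Of 84 members tested, 10 rose and 1 fell, and 62 estimates were above 0. The median was 0.27 against 0.03 over all 13508 genes tested, of which 23.1% were called and 10.6% rose. The share of members that rose, 11.9%, was near that background, so the count is no result about the members. Another 8 members were under the minimum, of which 3 were listed at 0 in all 4 libraries.

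Complex I gave 5 of the rises in untimed Daxx-KO KLS cells. Ndufb8, an accessory subunit, stood at 58.5 and 70.6 normalised reads in WT and 138 and 131 in Daxx-KO (1.05 ± 0.24, adjusted p = 0.0151), but Gm20538 overlaps it on the same strand. Ndufb10 stood at 82.6 and 107 against 177 and 175 (0.90 ± 0.22, adjusted p = 0.0192). Ndufs8, a core iron-sulfur subunit, stood at 79.1 and 102 against 140 and 179 (0.81 ± 0.24, adjusted p = 0.0417). The other rises in complex I were Ndufa6 (0.71 ± 0.19) and Ndufa10 (0.40 ± 0.12). Ndufaf2 fell, from 575 and 551 to 385 and 323 (-0.67 ± 0.14, adjusted p = 0.00890). Ndufs1 and Ndufv1 were not called, with WT at 282 and 274 and at 191 and 246, and Daxx-KO at 330.4 and 321 and at 244 and 310.

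Sdhb in untimed KLS cells stood at 243 and 212 in WT and 385 and 390 in Daxx-KO (0.77 ± 0.15, adjusted p = 0.0065). Cox4i1 stood at 354 and 382 against 530.5 and 606 (0.62 ± 0.13, adjusted p = 0.0108). The remaining rises were Cox6a1 (0.65 ± 0.19), Cox8a (0.51 ± 0.16) and Atp5d (0.49 ± 0.15), the delta subunit of the complex V rotor. The abundant Atp5a1 and Atp5b were not called, at 1743 and 2005 and at 1839 and 1828 in WT against 2180 and 2517 and 2125 and 2582 in Daxx-KO. Cox5a, whose fall was the largest in GMPs, was not called in KLS cells, at 122 and 136 in WT and 188 and 187 in Daxx-KO. None of the 11 calls held in every fit that left out 1 library, and 0 members were called without Daxx-KO 1 or without Daxx-KO 2.

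Called in both untimed comparisons were 7 of the 84 members, against 11.8% of all 12230 genes tested in both. Of these, 6 (7.14%) rose in KLS cells and fell in GMPs, namely Ndufa10, Sdhb, Cox4i1, Cox6a1, Cox8a and Atp5d, against 1.49% of all genes, and the KLS calls among them did not hold in every fit that left out 1 library. Ndufaf2 fell in both. The tables were normalised separately, so the difference between the cell types was not tested. Beside the KLS result, the KLS-defining markers fell as given above, GMP-defining markers summed to 1394 and 1369 RPM in WT and 2523 and 3087 in Daxx-KO (7 of 10 rose and 2 fell), and nucleus-retained RNA to 4634 and 4436 against 5474 and 5716, and B and plasma cell markers to 3070 and 1912 against 101 and 149. Genes that span under 20 kb had a median of 0.18 in KLS cells. The part of these in the result was not tested.

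**Figure D3:**
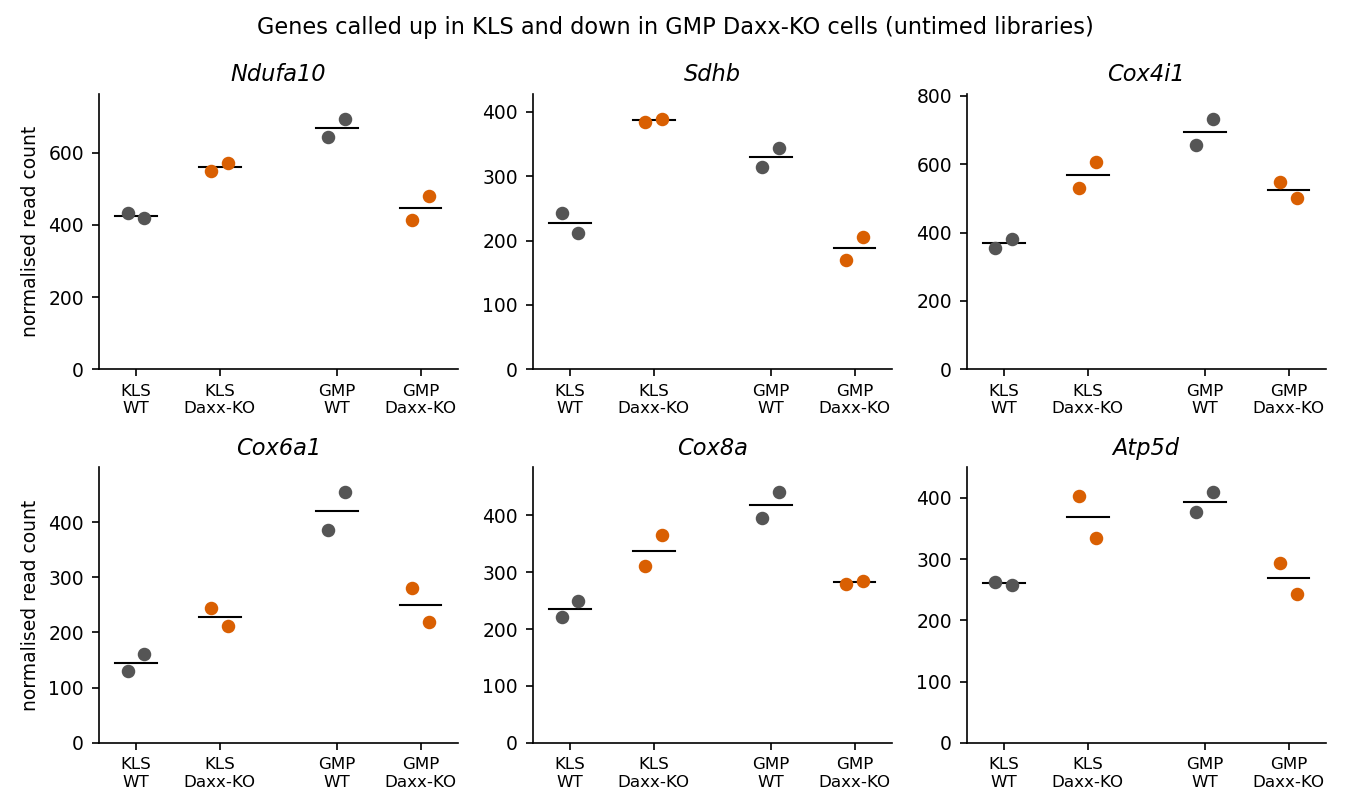
Normalised read counts of 6 OXPHOS genes called in both untimed comparisons, 1 point per library, in KLS cells and GMPs of WT and Daxx-KO genotype, with each table normalised on its own. Ndufa10, Sdhb, Cox4i1, Cox6a1, Cox8a and Atp5d are higher in Daxx-KO KLS cells and lower in Daxx-KO GMPs, with no overlap between genotypes in either cell type. They were chosen for being called in opposite directions in these libraries, so the directions follow from the choice.

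Other genes of mitochondrial energy metabolism were counted from lists. In untimed GMPs, 6 of 17 genes of the tricarboxylic acid (TCA) cycle fell and 0 rose, among them Fh1, fumarase (-0.72), and Idh3a, a subunit of isocitrate dehydrogenase (-0.70). Of 73 mitochondrial ribosomal proteins 13 fell and 1 rose, and of 31 genes that copy or process mitochondrial DNA and RNA 6 fell, Tfam (-0.53) and Lrpprc (-0.46) included, and 1 rose. Electron transfer partners such as the ubiquinone enzymes gave 3 falls and 1 rise of 15, other assembly factors 1 and 1 of 39, and nuclear regulators 2 falls (Ppargc1b and Pprc1) and 1 rise (Nfe2l2) of 10. Over all genes in these GMPs 16.5% fell. The falls of ribosomal proteins, electron transfer partners and genes for mitochondrial DNA and RNA were near that share. Those counts are therefore no result about these lists. In untimed KLS cells 6 of 17 TCA cycle genes rose and 0 fell, Idh2 (1.05) and Cs, citrate synthase (0.63), included. Over all genes in these cells 10.6% rose. The other lists gave 2 rises of 73 ribosomal proteins, 2 of 39 assembly factors, 1 of 31 mitochondrial DNA genes, 0 of 15 electron transfer partners and 2 rises (Nfe2l2 and Myc) with 2 falls (Gabpb1 and Ppargc1a) of 11 regulators.

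At 3 w.p.i., Daxx loss alone gave no called member in KLS cells. Of 89 tested 0 were called by limma, 14 had an unadjusted p under 0.05 (beside 11.7% of all genes), DESeq2 called 1 (beside 2.27% of all genes), and 76 estimates were above 0. The median was 0.24 against -0.00 over all genes, of which 0.257% were called. Uqcrfs1 showed separate groups, at 344, 387 and 401 in WT and 586, 624 and 549 in Daxx-KO, without passing the test. Atp5b was at 3307, 3473 and 3793 in WT and 4061, 6626 and 4257 in Daxx-KO, also without overlap. Sdha overlapped, at 3189, 2860 and 3115 against 3087, 3659.8 and 3152. The Daxx-KO library 2 was the highest in Atp5a1 and Atp5b and had the highest share of the table, and without it the median was 0.14. The same library was low in KLS-defining markers, which summed to 5639, 2831 and 5331 RPM in Daxx-KO and 7075, 6908 and 4944 in WT, and in nucleus-retained RNA, at 3668, 2224 and 4662 against 4616, 4533 and 5035. B and plasma cell markers summed to 4443, 10747 and 11332 in Daxx-KO and to 610, 268 and 8902 in WT, with a median log2 fold change of 3.01 and 0 of 9 called. The part of these measures in the values above was not tested.

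DKO-labelled KLS cells at 3 w.p.i. had 10 members that rose and 1 that fell against WT, of 89 tested. The median was 0.44 against -0.00 over all genes and 72 estimates were above 0. Across all genes 17.6% were called and 9.24% rose, so the 11.2% of members that rose was near the background. Ndufv3 had the largest rise, from 579, 369 and 494 in WT to 1529 and 1241 (1.54 ± 0.20, adjusted p = 0.00147), with Daxx-KO at 493, 527 and 525. Against Daxx-KO it also rose (1.42 ± 0.20, adjusted p = 0.00169). Both DKO-labelled libraries thus stood above all 6 others, and Ndufv3 was called in each of the 5 fits that left out 1 library, in either comparison.

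Ndufb7, an accessory subunit of complex I, stood at 298, 268 and 424 in WT and 707 and 876 in DKO-labelled KLS cells (1.28 ± 0.25, adjusted p = 0.00834). Atp5h, a peripheral stalk subunit of complex V, stood at 303, 302 and 314 against 649.6 and 572 (0.99 ± 0.19, adjusted p = 0.00728) and rose against Daxx-KO as well (0.64 ± 0.19, adjusted p = 0.0441). In both genes the DKO-labelled libraries lay above all WT libraries. The others that rose against WT were Ndufa3 (1.03), Uqcrc2 (0.47), Cox8a (0.85), Uqcrq, which went from 420.4, 242 and 452 in WT to 790.4 and 776, Cox7a2, which went from 151, 189 and 134 to 286 and 396, and the assembly factors Ndufaf3 (1.15) and Ndufaf7 (0.91). Ndufaf2 fell, from 960, 1237 and 856 to 545 and 716 (-0.69 ± 0.20, adjusted p = 0.0404). Sdhb and Cox5a were not called, with Sdhb at 645, 633 and 576 in WT against 525 and 670, and Cox5a at 170, 160 and 254 against 234 and 299.

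Against Daxx-KO, which shares the DKO-labelled libraries with the comparison above, 3 of 89 members rose and 0 fell, with a median of 0.13 and 15.4% of all genes called (8.17% rose). Beside Ndufv3 and Atp5h the gene was Cox6b2, the testis form, at 17.0, 38.6 and 32.4 in Daxx-KO and 149 and 129 in DKO-labelled cells (2.28 ± 0.67, adjusted p = 0.0465). Its WT libraries were at 27.0, 94.4 and 19.0, which spanned a wide range, and no fit that left out 1 library called it. Neutrophil markers summed to 11204 and 10126 RPM in the DKO-labelled KLS libraries, to 41.8 to 2142 in WT and to 76.5 to 465 in Daxx-KO, and 3 of 10 rose against WT and 7 of 10 against Daxx-KO. GMP-defining markers summed to 7696 and 8857, against 1814 to 4410 in WT and 1400 to 1758 in Daxx-KO, and 3 of 10 rose and 1 fell against WT and 5 rose and 2 fell against Daxx-KO. KLS-defining markers summed to 1843 and 2691, against 4944 to 7075 in WT, where 5 of 10 fell, and 2831 to 5639 in Daxx-KO, where 2 fell. B and plasma cell markers summed to 10668 and 14795, against 268 to 8902 in WT and 4443 to 11332 in Daxx-KO, with 0 of 9 called in either comparison. Their part in these results was not tested. The count against WT ranged from 2 without DKO 1 to 12 without WT 3, and against Daxx-KO from 1 to 6, the latter without Daxx-KO 2.

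The lists around OXPHOS gave few calls in DKO-labelled KLS cells. Against WT, 2 of 15 electron transfer partners rose (Gpd2 and Coq9), of 38 other assembly factors 2 rose and 2 fell, of 17 TCA cycle genes 1 rose (Ogdh, 0.56) and 1 fell (Idh2, -0.85), and of 73 ribosomal proteins 3 rose and 1 fell. Mitochondrial DNA genes gave 1 rise (Polg, 0.94) and 1 fall (Top1mt, -1.34), and regulators 1 rise (Nfe2l2) and 2 falls (Myc and Ppargc1a). Against Daxx-KO, 3 of 15 electron transfer partners rose (Gpd2, Coq9 and Pdss2), 1 assembly factor and Idh2 (-1.27) fell, 3 ribosomal proteins rose and 1 fell, and the mitochondrial DNA genes and regulators that passed were the ones named for the comparison with WT. Between Daxx-KO and WT KLS cells 3 w.p.i. none of these lists held a called gene, beside 0.257% of all genes called.

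In GMPs at 3 w.p.i. no member was called in any comparison. Of 88 tested, limma called 0 for Daxx-KO against WT, 0 for DKO-labelled against WT and 0 for DKO-labelled against Daxx-KO, edgeR and DESeq2 also called 0 in each, and 0, 0 and 1 had an unadjusted p under 0.05, beside 3.16%, 7.01% and 8.05% of all genes. All genes were called at 0.0948%, 0.292% and 0.0583%. The medians of the members were -0.04, -0.05 and -0.05. The values within a group spread widely: Cox4i1 was at 1459, 755 and 1334 in WT, 1684, 827 and 1467 in Daxx-KO and 823 and 1734 in DKO-labelled cells. Atp5a1 was at 9522, 8177 and 9205, at 11618, 7239 and 10448, and at 6284 and 11975. In both genes the spread inside each group was larger than the distance between group means. Cox5a and Sdhb, which fell in untimed GMPs, overlapped between genotypes here, Cox5a at 534, 285 and 481 in WT against 316, 388 and 596 in Daxx-KO, and Sdhb at 852, 578 and 832 against 946, 756.5 and 948. The libraries with the lowest shares, 0.470% in Daxx-KO and 0.451% in DKO-labelled cells, held 1965 and 2357 RPM of nucleus-retained RNAs, and the libraries with the highest shares, 0.744% and 0.756%, held 1376 and 1093. Neutrophil markers summed to 23267, 4828 and 18090 RPM in WT, 3256, 23657 and 3572 in Daxx-KO and 13614 and 9225 in DKO-labelled GMPs, and the part of both measures was not tested. The median for DKO-labelled against WT ran from -0.43 without DKO b to 0.30 without DKO a, where a and b are the libraries in column order.

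**Figure D4:**
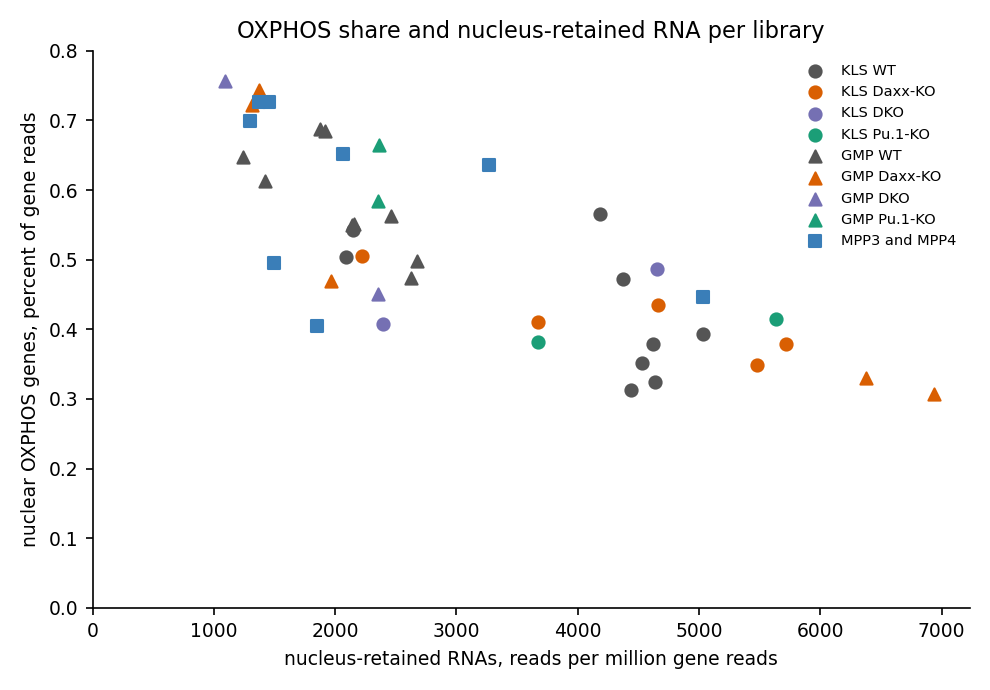
Share of gene reads in nuclear OXPHOS genes (percent, y axis) against RPM of 5 nucleus-retained RNAs (x axis), 1 point per library, coloured by genotype and shaped by cell type. In untimed GMPs the Daxx-KO libraries lie at 6373 and 6940 RPM with shares of 0.330% and 0.307%, and the WT libraries at 2624 and 2673 with 0.474% and 0.498%.

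In the Pu.1 line, KLS cells gave low estimates that did not pass the test. Of 91 members tested 0 were called by limma, 18 had an unadjusted p under 0.05 (a smaller share than the 25.9% of all genes), and edgeR and DESeq2 on the whole reads each called 2, while all genes were called at 0.81% by limma, 8.18% by edgeR and 8.39% by DESeq2. The libraries of a group spread widely in this table, and a count of 0 does not show that the members did not differ. The median was -0.75 against 0.12 over all 23459 genes, and 85 of 91 estimates were below 0. Atp5b was at 8401 and 6051 in WT and 3790 and 1499 in Pu.1-KO-labelled cells, and Ndufs1 at 1262 and 817 against 683 and 236. Cox5a overlapped, at 557 and 346 against 376.6 and 240. The groups of Atp5b and Ndufs1 were separate. Without Pu.1-KO 1 the median was -1.09, and without Pu.1-KO 2 it was -0.53. Neutrophil markers summed to 2191 and 1495 RPM in WT and 8215 and 5467 in Pu.1-KO-labelled cells, and their part was not tested.

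Pu.1-KO-labelled GMPs had 9 members that fell and 0 that rose, of 90 tested. The median was -0.37 against -0.00 over all genes, 84 of 90 estimates were below 0, and 17.6% of all genes were called with 8.49% that fell, against 10% of the members, so the count stood near the background. The largest fall was in Atp5g1, at 67.7 and 82.3 in WT and 13.1 and 43.7 (-1.59 ± 0.56, adjusted p = 0.0316), with Atp5g2, which encodes the same mature protein, at 127 and 106 against 59.3 and 40.2 (-1.23 ± 0.44, adjusted p = 0.0360). Atp5o, a stalk subunit of complex V, stood at 295 and 257 against 93.9 and 176 (-1.10 ± 0.32, adjusted p = 0.00909). In these genes both labelled libraries lay below both WT libraries. Atp5d also fell (-0.68 ± 0.24), so 4 of the 9 were in complex V.

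Complex I assembly factors gave another 3 of the falls in Pu.1-KO-labelled GMPs. Ndufaf4 stood at 389 and 364 in WT against 161 and 208 (-1.04 ± 0.29, adjusted p = 0.00668), Ndufaf5 at 272 and 219 against 119 and 149 (-0.87 ± 0.33, adjusted p = 0.0459), and Ndufaf2 at 713 and 559 against 346.5 and 438 (-0.69 ± 0.26, adjusted p = 0.0439). The rest were Ndufa12 (-0.85) and Uqcrc2 (-0.69). Atp5a1 and Sdha were not called, at 9360 and 10793 and at 3876 and 4433 in WT, against 6356 and 8725 and 2665 and 3444. The 4 members of complex II were all below 0 and none was called. No member was called in every fit that left out 1 library. The median ran from -0.64 without Pu.1-KO b to -0.16 without Pu.1-KO a. Mature neutrophil markers rose in 9 of 10, with sums of 2774 and 2111 RPM in WT and 16266 and 12909 in labelled cells, and genes under 20 kb had a median of -0.17. Their part was not tested. In the same cells 6 of 17 TCA cycle genes fell (Idh2, -1.11), as did 14 of 73 ribosomal proteins, 8 of 31 mitochondrial DNA genes, 4 of 15 electron transfer partners and 4 of 39 other assembly factors, of which 1 more rose. Over all genes in these GMPs 8.49% fell. Among regulators Ppargc1a rose (1.82) and Myc and Pprc1 fell (-0.89 and -1.01). Among Pu.1-line KLS cells these lists held 1 called gene, Idh3g (-2.17), beside 0.81% of all genes called.

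No member passed the test between MPP3 and MPP4 cells. Of 90 tested 0 were called and 0 had an unadjusted p under 0.05 by limma, edgeR and DESeq2 called 0, and the background was 0.0% of 20137 genes in limma's fit, while an unadjusted p under 0.05 was reached by 0.531%. With so few calls in the whole table, a count of 0 does not show that the members did not differ. The median of MPP4 minus MPP3 was 0.13 against 0.11 over all genes. Cox4i1 was at 779, 767, 1170 and 1765 in MPP3 and 940.2, 878, 1907 and 1588 in MPP4 from animals 1 to 4, and the groups overlapped. The share of gene reads was 0.446%, 0.496%, 0.636% and 0.726% in MPP3 and 0.404%, 0.652%, 0.699% and 0.726% in MPP4, and the ranges overlapped. The libraries of MPP3 from animal 2 and MPP4 from animal 1 stood apart from the rest, and without both the median was 0.22 with 0 called. The libraries hold both Daxx genotypes, which could not be separated by label here. From animals 1 to 4 Daxx stood at 44.0, 41.6, 24.0 and 15.3 RPM in MPP3 and at 25.1, 56.5, 18.9 and 8.92 in MPP4. In both cell types animals 1 and 2 had more Daxx and lower OXPHOS shares than animals 3 and 4, and this was not tested.

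GMPs held a larger share of OXPHOS RNA than KLS cells in most sets, given in RPM with no test, since the tables were normalised apart. In untimed WT cells 64 of 85 members had both GMP libraries above both KLS libraries and 4 had them below, against 34.3% above and 35.2% below over all genes. The median log2 ratio of the members was 0.67 and that of all genes -0.02. In WT cells at 3 w.p.i. 61 of 88 were above and 7 below (23.7% and 35.9% of all genes). In the Pu.1 line 57 of 89 were above and 10 below in WT (21.2% and 44.1%), and 57 of 89 above and 11 below in Pu.1-KO-labelled cells (18.9% and 45.4%). At 3 w.p.i. 20 of 87 (23.0%) were above and 1 below in Daxx-KO cells (16.1% and 32.0% of all genes). In DKO-labelled cells 17 of 87 (19.5%) were above, near the 20.7% of all genes, so that count is no result about the members. Another 6 were below, beside 31.2% of all genes. In untimed Daxx-KO cells 12 of 84 were above (14.3%, beside 26.9% of all genes) and 36 below (42.9%, near the 41.4% of all genes). At 24 w.p.i. WT cells gave 26 of 86 above (30.2%, near the 26.5% of all genes) and 12 below (beside 37.7% of all genes).

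Outside the untimed set the columns of KLS cells and GMPs share animal numbers, so the cell types could also be compared within animals. At 3 w.p.i. the OXPHOS share was higher in the GMPs of all 3 WT animals, of 2 of 3 Daxx-KO animals and of both DKO-labelled animals, and in the Pu.1 line and at 24 w.p.i. it was higher in the GMPs of every animal. Members higher in the GMPs of every animal were 66 of 88 in WT cells at 3 w.p.i. (30.4% of all genes), 26 of 87 in Daxx-KO (20.4%) and 46 of 87 in DKO-labelled cells (28.5%), the last being many more than the 17 without overlap. In the Pu.1 line they were 62 of 89 in WT (23.5%) and 65 of 89 in Pu.1-KO-labelled cells (21.4%), and at 24 w.p.i. 34 of 86 (31.1%). Whether the genotypes differ in this was not tested, and a set of 3 against 3 libraries separates fewer genes than 2 against 2.

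Uqcrc1, a core protein of complex III, was higher in GMPs in all 8 sets, for example at 62.4 and 65.6 RPM in untimed WT KLS cells and 126 and 129 in GMPs. Ndufb7, Cox7a2 and Uqcrfs1 were higher in 7 of 8. Ndufaf2 and Atp5s, a factor named for complex V coupling, were lower in GMPs in 6 of 8 and higher in none. For Ndufaf2 at 3 w.p.i. the WT libraries ran from 64.5 to 93.9 RPM in KLS cells and from 30.3 to 64.4 in GMPs. It is also the longest member, and it fell with Daxx loss in both untimed cell types. At 3 w.p.i. its fall was called in DKO-labelled KLS cells against WT and in Pu.1-KO-labelled GMPs. With Daxx loss alone it was not called at 3 w.p.i. in either cell type.

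**Figure D5:**
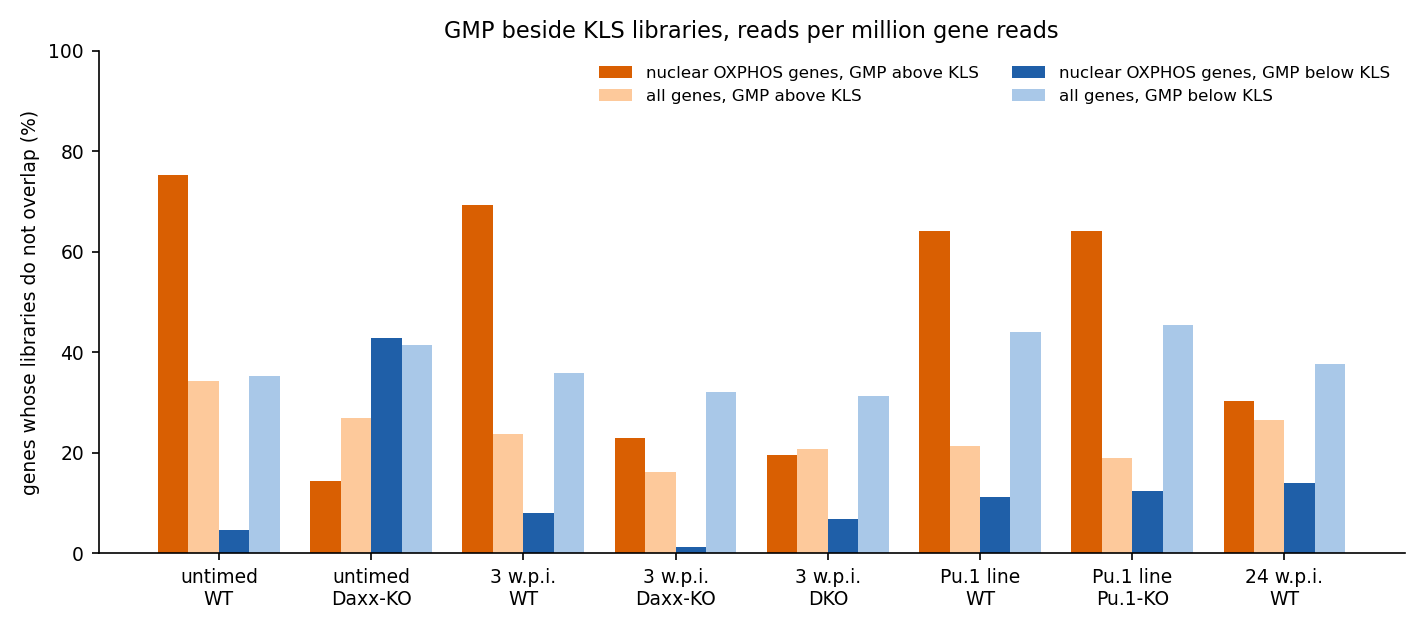
Percent of nuclear OXPHOS genes and of all genes whose GMP libraries all lie above, or all lie below, the KLS libraries of the same set and genotype, computed from RPM. The members stand at 75.3% above in untimed WT cells and at 14.3% above with 42.9% below in untimed Daxx-KO cells, where all genes stand at 26.9% above and 41.4% below.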

How the data were processed

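RNA-seq of sorted mouse bone marrow progenitors had been aligned by the authors with STAR 2.5.3 after adapter removal with cutadapt 1.13, against mm10 with a GENCODE annotation, and per the labels and the study's methods normalised with DESeq2 1.16.1. CASAVA 1.8.4 is also named in the submitters' processing notes. The counter and its use of strand are not given in the sources used here, and the sources differ on the library kit. The authors deposited gene tables of normalised read counts, that is, counts divided by a size factor per library (a signal that is never negative), normalised within each table, so no test crosses tables. In 100% of values above 0 the step between values gave whole reads within 0.01, and these reads gave depth (3045852 to 29335964 gene reads) and RPM. Tables of the authors' own fold changes and p values were not used. Of 111 columns with values per sample 67 were not used, including 15 of gene tables whose names match no single label. Daxx-KO and DKO at 24 w.p.i. and LT-HSCs were therefore not analysed here.

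The main test was limma 3.58.1 (R 4.3.3) with an intensity trend on log2(normalised read count + 1), over genes with a mean of at least 10 in the table, with all libraries of a table in 1 fit, two-sided, with Benjamini-Hochberg adjustment over all genes tested and a threshold of 0.05. Fold changes are on that scale, which understates changes of low genes. The design assumed counts or normalised values, and edgeR 4.0.16 and DESeq2 1.42.0 were run on the recovered reads as alternatives. Other alternatives were a pseudocount of 5, no filter, TMM scaling, fits of the compared groups alone, a replicate block and each library left out. The fit was also run on simulated data, where it missed most of the smaller added changes outside the untimed tables. Python 3.11.15 with numpy 2.4.6, pandas 2.3.3 and scipy 1.17.1 made the counts. Errors of fold changes are standard errors, and other errors are SD.

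Named genes were the mitochondrial members, a core set (Ndufs1, Ndufv1, Sdha, Sdhb, Uqcrc1, Uqcrfs1, Cox4i1, Cox5a, Atp5a1 and Atp5b), isoforms known from other tissues, and the members called in each comparison, or the 10 largest in each direction where more than 20 were called. Ndufs7, Ndufa4 and other named members outside this rule were chosen after their values were seen, and a called member is counted but not reported by name here. The members, gene lists and marker lists were chosen with earlier results of these data known. Within a group, the chi-square per degree of freedom over genes was 5.57 to 233 for 36 pairs of libraries. GMP columns at 3 w.p.i. and all Pu.1-line columns carry no replicate number of the labels and are numbered in column order, with letters where named, and 1 WT KLS library at 3 w.p.i. has no number in its column.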

Additional observations from a re-analysis of the deposited data

Results flagged for a closer look

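In untimed cells every Daxx-KO KLS library lay above WT and every Daxx-KO GMP library below WT in the share of gene reads held by nuclear OXPHOS genes, and the mean difference (Daxx-KO minus WT) was 0.0455 percentage points in KLS cells and -0.167 in GMPs. The difference between the cell types was not tested here or in any of the values that follow, since the tables were normalised separately. The same held for the subunits of each complex, with 0.00955 and -0.0407 percentage points for complex I, 0.00629 and -0.0127 for complex II, 0.00579 and -0.0118 for complex III, 0.00831 and -0.0232 for complex IV, and 0.0181 and -0.0718 for complex V, KLS cells before GMPs. The complex I assembly factors, counted apart, did not follow this. Their share was lower in Daxx-KO KLS cells too, at 0.0167% and 0.0159% against 0.0191% and 0.0187% in WT. In GMPs it was 0.0139% and 0.0132% in Daxx-KO against 0.0209% and 0.0204% in WT.

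Among single genes, 6 of 84 members rose in KLS cells and fell in GMPs, beside 1.49% of all genes tested in both, and 0 members were called in KLS cells without Daxx-KO 1 or without Daxx-KO 2. The log2 fold changes were 0.40 and -0.58 for Ndufa10, 0.77 and -0.81 for Sdhb, 0.62 and -0.40 for Cox4i1, 0.65 and -0.76 for Cox6a1, 0.51 and -0.56 for Cox8a, and 0.49 and -0.55 for Atp5d. Groups of 2 or 3 libraries were not examined for single libraries far from the rest. MPP3 and MPP4 cells, with 4 libraries each, were, and in their 14 summed shares of OXPHOS genes no library passed the limit, where chance flags about 1 in 20.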

How the results depend on the processing

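No direction of a named call reversed in any setting run. The median fold changes of members kept their sign in every setting outside GMPs at 3 w.p.i., where leaving out 1 library gave -0.13 to 0.17 (Daxx-KO against WT), -0.43 to 0.30 (DKO-labelled against WT) and -0.46 to 0.29 (DKO-labelled against Daxx-KO). Without a filter the called members were 4 in untimed KLS cells (11 in the main test), 7 in DKO-labelled KLS cells against WT (11), 1 against Daxx-KO (3) and 3 in GMPs of the Pu.1 line (9). DESeq2 called 6, 20 and 5 in the first 3 of these comparisons, 1 between Daxx-KO and WT KLS cells 3 w.p.i. (0) and 2 in Pu.1-line KLS cells (0), and edgeR called 2 in Pu.1-line KLS cells and 4 in Pu.1-line GMPs. The causes were not tested. Leaving out 1 library gave 0 to 8 called members in untimed KLS cells, 8 to 39 in untimed GMPs (37), 2 to 12 and 1 to 6 in DKO-labelled KLS cells against WT and Daxx-KO, 0 to 39 in Pu.1-line KLS cells and 0 to 61 in Pu.1-line GMPs, and 0 in the other comparisons. The medians then ranged from 0.21 to 0.30, -0.49 to -0.43, 0.26 to 0.58, 0.04 to 0.27, -1.09 to -0.53 and -0.64 to -0.16 in the same order, from 0.14 to 0.28 between Daxx-KO and WT KLS cells 3 w.p.i. and from 0.03 to 0.23 in MPP cells. Where a group held 2 libraries, the lone library was assumed to vary like the rest. The replicate block called 13 in untimed KLS cells, 34 in untimed GMPs (44 with the numbers crossed), 0 between Daxx-KO and WT KLS cells 3 w.p.i., and 6 and 1 in DKO-labelled KLS cells, where the same libraries without the block gave 8 and 1. Libraries with the same number correlated at -0.01 (untimed KLS), -0.11 (untimed GMPs) and 0.07, -0.18 and -0.08 (KLS, 3 w.p.i.), so the numbers did not pair them. A block by animal left 0 called in MPP cells. No paired analysis was possible for GMPs at 3 w.p.i. and the Pu.1 line because the columns carry no label number, and the comparisons planned at 24 w.p.i. and in LT-HSCs were not run because their columns could not be matched. Matching GMPs to KLS cells by animal, added after seeing the data, gave 46 members above in DKO-labelled cells at 3 w.p.i. (17) and stayed within 1.5 times in the other 5 sets. With 2 or 3 libraries a group differences can be missed, large ones too where libraries spread as in Pu.1-line KLS cells and MPP cells.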
